A study of Mus musculus with 71 samples.

Results

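Microglia that carried a GFP reporter for Spp1, the osteopontin gene, were sorted from mouse brains bearing a glioma and compared gene by gene with microglia of healthy brains. The glioma group was 4 libraries of GFP+ cells from mice heterozygous for the Spp1-GFP allele, collected 21 days after inoculation of CT2a, a mouse glioma cell line. The healthy group was 4 libraries of microglia from wild-type mice without a tumour. Both groups were 8 to 10 weeks old by label and were sorted from brain by flow cytometry, with 2000 microglia per library. The tumour, the reporter allele and the GFP gate therefore differ together between the groups and cannot be told apart. A further group, 4 libraries of GFP- cells from tumour-bearing Spp1-GFP mice, shared the table and the fit and is used here only beside the main contrast. The series holds 71 samples in all, with other disease models sorted the same way. The labels do not say whether libraries came from separate or pooled mice, so p-values measure the spread between these libraries, which may be technical.

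Every gene with at least 1 TPM (a gene's reads scaled by its length and by the library's total) in 4 or more of the 12 glioma-experiment libraries was kept, which left 14461 of 55413 listed gene symbols. Differences are on the log2(TPM + 1) scale, GFP-positive minus control. A gene was called, and is said to have risen or fallen, at a limma adjusted p below 0.05. The highest adjusted p among the called genes with a fold change given here was 0.0208, for H2-Ob. Means carry their SD over 4 libraries, and values by library run from library 1 to library 4.

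Microglia are the resident macrophages of the brain parenchyma. In healthy tissue they hold a homeostatic state marked by the purine receptor P2ry12, the fractalkine receptor Cx3cr1, Tmem119 and the transcription factor Sall1. Around gliomas they mix with macrophages derived from blood monocytes, and both populations can respond to interferons, take up lipid and debris, present antigen and express genes that restrain T cells. Osteopontin is a secreted phosphoprotein that binds CD44 and integrins, and Spp1 is among the transcripts raised in reactive microglia. In a bulk library, fewer cells of a type and less RNA per cell cannot be told apart.

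Promoters of 4 interferon-stimulated genes are shown, since genes of that response rose together in the GFP-positive libraries. The motif was GAAA followed, after any 2 bases, by GAAA again, on either strand, the core of the interferon-stimulated response element. It was searched for in the 250 bases before each RefSeq start site of build GRCm38.p6. Capitals mark the matches, and overlapping matches run together. Oas1a (chr5:120907526-120907775, minus strand) held 2 overlapping matches and Isg15 (chr4:156200819-156201068, minus strand) held 3. Oasl2 (chr5:114896684-114896933, plus strand) and Oasl1 (chr5:114922990-114923239, plus strand) held none in this window.
Oas1a: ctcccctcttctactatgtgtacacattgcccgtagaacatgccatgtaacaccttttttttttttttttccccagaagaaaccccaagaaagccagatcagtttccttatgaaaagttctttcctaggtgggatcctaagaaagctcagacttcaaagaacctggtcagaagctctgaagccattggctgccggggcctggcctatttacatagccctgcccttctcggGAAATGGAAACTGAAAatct
Isg15: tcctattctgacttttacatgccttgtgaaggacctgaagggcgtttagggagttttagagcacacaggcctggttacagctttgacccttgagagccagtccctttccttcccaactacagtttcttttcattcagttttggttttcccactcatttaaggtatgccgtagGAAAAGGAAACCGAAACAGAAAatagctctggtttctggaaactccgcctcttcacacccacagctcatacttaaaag
Oasl2: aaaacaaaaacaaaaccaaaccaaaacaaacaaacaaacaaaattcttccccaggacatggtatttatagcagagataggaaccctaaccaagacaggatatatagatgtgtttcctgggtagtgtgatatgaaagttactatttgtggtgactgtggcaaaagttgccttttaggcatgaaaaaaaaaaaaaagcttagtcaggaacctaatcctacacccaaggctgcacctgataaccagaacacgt
Oasl1: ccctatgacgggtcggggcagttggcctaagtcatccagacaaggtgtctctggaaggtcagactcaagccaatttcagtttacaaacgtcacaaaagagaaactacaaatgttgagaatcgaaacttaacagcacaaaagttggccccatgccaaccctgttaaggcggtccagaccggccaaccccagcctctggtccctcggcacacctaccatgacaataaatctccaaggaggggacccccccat
Of the 34 tested genes of the type I interferon list, 24 matched a promoter entry by symbol, and 11 of these held the motif (45.8%), against 821 of all 27025 promoters (3.04%). Oas1a and Oasl2, the first with matches and the second without, both rose by more than 4 on the log2 scale, as given with their values further on. A match is a description of these letters and was not tested as a binding site.

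The libraries were of similar complexity, with 16565 to 17515 symbols above 0 TPM in the GFP-positive group and 16317 to 17595 in controls. Ribosomal protein transcripts made up 10.4 to 12.1% of TPM in GFP-positive libraries and 5.14 to 5.79% in controls. Mitochondrial transcripts made up 2.38 to 3.56% in GFP-positive libraries and 3.25 to 3.51% in controls. The part of the ribosomal share in the results was not tested. TPM keeps no sequencing depth, so depth per library is unknown.

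In total 9205 of the 14461 tested genes were called, 63.7% of those tested. Of these, 2561 were higher (17.7%) and 6644 lower (45.9%) in GFP-positive microglia. The median log2 fold change of all tested genes was -0.51. Rescaling the libraries by median-of-ratios factors brought that median to 0.00 and gave 7489 called genes (51.8%), 4081 higher (28.2%) and 3408 lower (23.6%). The rescaled calls held all 2561 genes called higher on the deposited scale, while 51 genes were called in opposite directions on the 2 scales. Fold changes are therefore also given after rescaling. The 4 and 4 libraries did not overlap for 8120 genes (56.2%), and 785 called genes rose and 815 fell by more than 4-fold.

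**Figure D1:**
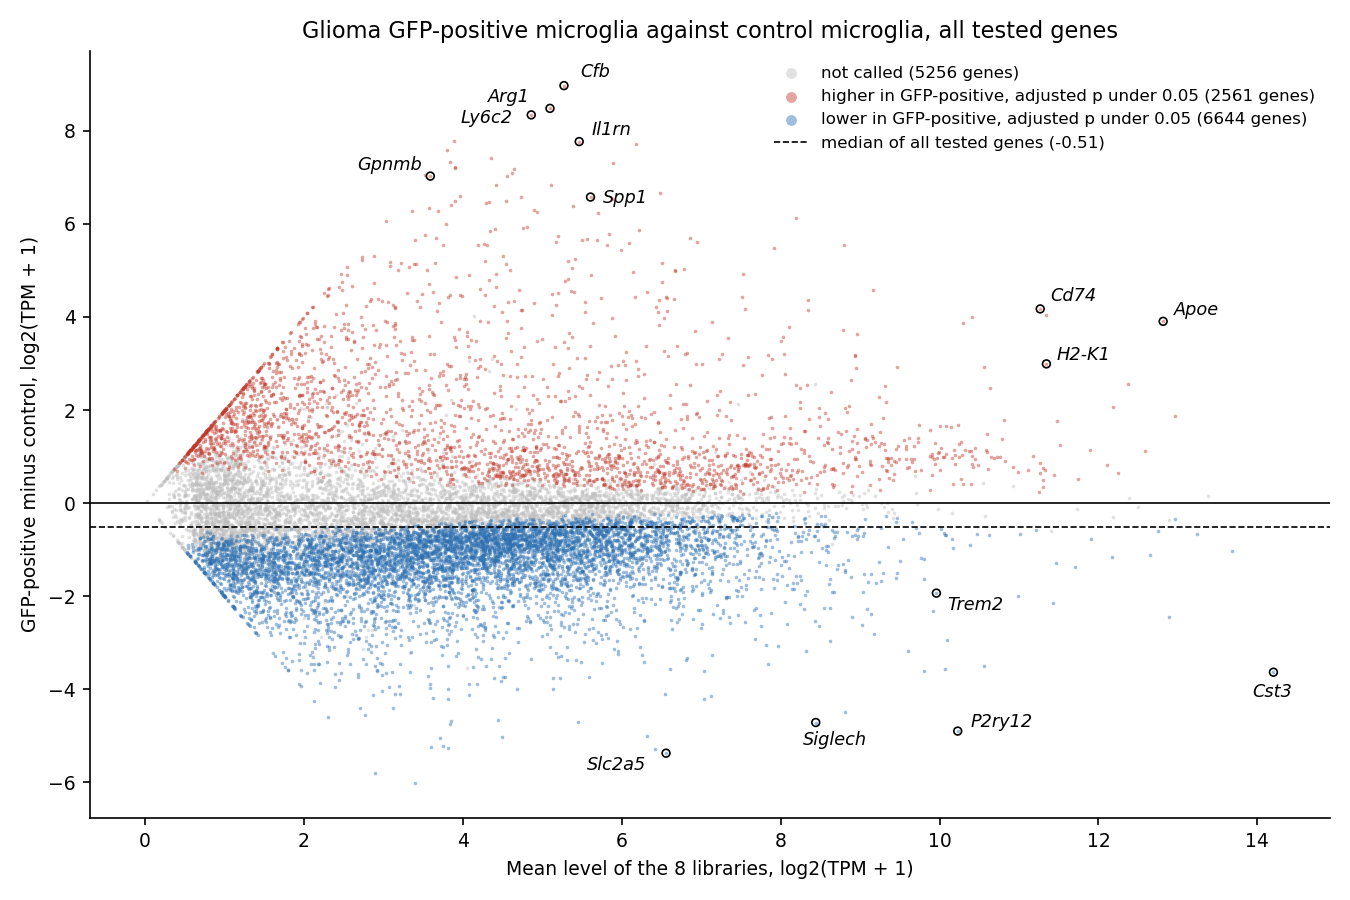
Log2 fold change, GFP-positive minus control on the log2(TPM + 1) scale (vertical axis), against the mean log2(TPM + 1) level (horizontal axis) for the 14461 tested genes, each point a gene, called genes in colour and the median of all genes, -0.51, as a dashed line. Called genes number 2561 above 0 and 6644 below it.

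The cell label was checked against microglial markers. Csf1r, the receptor for the microglial growth factors CSF1 and IL-34, stood at 1685, 1372, 1113 and 1139 TPM in GFP-positive libraries 1 to 4, against 5929, 5569.8, 5912 and 5872 TPM in control libraries 1 to 4. Tmem119 stood at 546, 409, 197 and 211 TPM in the GFP-positive libraries, against 3828, 3699, 3656 and 3649.5 TPM in the controls. Both were far above 0 in every library, and both were lower in all 4 GFP-positive libraries than in any control. Of 9 markers looked at, 7 were lower in every GFP-positive library than in any control and 2 were higher. The higher ones were Aif1, which encodes the macrophage and microglia marker IBA1, and Ptprc, which encodes the leukocyte antigen CD45, low on resting microglia. Aif1 stood at 1013, 963, 953 and 1079 TPM in the GFP-positive libraries, against 595, 554, 628 and 597 TPM in the controls (adjusted p = 1.96e-05, log2 fold change 0.75 with SE 0.1, or 1.37 rescaled). Ptprc stood at 226, 257, 285 and 214 TPM in the GFP-positive libraries, against 208, 176, 168 and 158 TPM in the controls (adjusted p = 0.0116, log2 fold change 0.46 with SE 0.14, or 1.07 rescaled). Both were named after their values were seen. GFP-positive library 1 kept the highest levels of Csf1r and Tmem119 in its group and was nearest to the controls over all genes (mean correlation across genes with the 4 controls 0.818, against 0.773 to 0.792 for GFP-positive libraries 2 to 4).

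Markers of other cells moved with the same contrast and stand beside every gene group that follows. Of 21 markers of monocyte-derived cells, 17 rose and 1 fell, and their summed level was 4159 to 9042 TPM in GFP-positive libraries, against 191 to 416 TPM in controls. Ly6a, at 2475 TPM on average, and Tgfbi, at 1572 TPM, made up most of that sum in GFP-positive libraries. Ly6c2, a surface antigen of inflammatory monocytes, stood at 229, 464, 1214 and 579 TPM in the GFP-positive libraries, against 0, 1.62, 1.25 and 0.15 TPM in the controls. GFP-positive library 1 had the lowest Ly6c2 and the lowest marker sum of its group. Among 12 tested T cell markers 11 rose, with sums of 27.9 to 171 TPM in GFP-positive libraries and 0.8 to 6.41 TPM in controls. Among 11 NK cell markers all 11 rose, with sums of 49.3 to 453 TPM in GFP-positive libraries and 0.54 to 5.61 TPM in controls. These counts stand beside 17.7% higher and 45.9% lower over all tested genes. Markers near 0 in controls, such as Gzma and Gzmb, could pass the filter only through libraries of tumour-bearing mice. The T and NK cell counts were thus partly fixed by the filter, while the sums also hold members below it. The part of these other cells in the results was not tested.

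Spp1 itself (chr5:104435118-104441050, plus strand of GRCm38) checks the gate. It stood at 945, 224, 442 and 545 TPM in the GFP-positive libraries, against 17.6, 8.8, 0.33 and 1.56 TPM in the controls. The lowest GFP-positive library was more than 10-fold above the highest control, and both groups varied widely (adjusted p = 4.88e-06, log2 fold change 6.58 with SE 0.7, or 7.05 rescaled). In GFP- cells of the same tumour model Spp1 stood at 92.3, 58.4, 48.5 and 29.4 TPM, and the GFP-positive libraries were higher than these (log2 fold change 3.15, SE 0.7, adjusted p = 0.0198). Of 10 tested osteopontin receptor genes 4 rose and 5 fell, beside 17.7% and 45.9% of all tested genes, or 4 and 2 after rescaling (median log2 fold change -0.21, or 0.21 rescaled). Without control library 4, 3 fell. Cd44, the hyaluronan and osteopontin receptor, stood at 50.9, 99.8, 91.9 and 101 TPM in the GFP-positive libraries, against 11.4, 4.3, 4.55 and 4.54 TPM in the controls, with no overlap (adjusted p = 1.07e-06, log2 fold change 3.65 with SE 0.32, or 4.19 rescaled). The integrin subunit Itga5 also rose and averaged 50.5 ± 7.98 TPM in GFP-positive libraries and 14.8 ± 1.71 TPM in controls (log2 fold change 1.69, SE 0.19, or 2.27 rescaled). Itgb3, the beta subunit that pairs with Itgav, fell and averaged 2.48 ± 1.08 TPM in GFP-positive libraries and 30.02 ± 2.93 TPM in controls (log2 fold change -3.2, SE 0.29, or -2.67 rescaled). Itgb5 averaged 100.4 ± 18.9 TPM in GFP-positive libraries and 301 ± 13.5 TPM in controls (log2 fold change -1.59, SE 0.17, or -0.98 rescaled). Itgav fell on the deposited scale and averaged 38 ± 6.29 TPM in GFP-positive libraries and 67.5 ± 10.3 TPM in controls (log2 fold change -0.82, SE 0.15, or -0.22 rescaled). It lost its call after rescaling. Itgb6 and Itgb8 were below the filter.

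The 12 genes with the largest rises were led by complement factor B, Cfb (chr17:34856374-34862518, minus strand), the serine protease of the alternative complement pathway. Cfb stood at 781, 778, 1129.8 and 816 TPM in the GFP-positive libraries, against 1.22, 0, 0 and 3.0 TPM in the controls. All 4 GFP-positive libraries were high and no control exceeded 3 TPM (adjusted p = 2.26e-09, log2 fold change 8.97 with SE 0.37, or 9.32 rescaled). Arg1 (chr10:24915221-24927484, minus strand), the arginine-degrading arginase of alternatively activated macrophages, stood at 137, 1363, 571 and 1623 TPM in the GFP-positive libraries, against 0.37, 5.07, 0 and 0.29 TPM in the controls. GFP-positive library 1 was far below the other 3, yet above every control (adjusted p = 3.98e-06, log2 fold change 8.48 with SE 0.88, or 8.83 rescaled). Ly6c2, given above, ranked next (adjusted p = 5.86e-08, log2 fold change 8.34 with SE 0.52, or 8.69 rescaled).

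Serpina3g, a serine protease inhibitor, stood at 164, 183, 357 and 210.0 TPM in the GFP-positive libraries and was listed at 0 in all 4 controls (adjusted p = 5.83e-10). Il1rn, the antagonist of the interleukin 1 receptor, stood at 413, 756, 825 and 697 TPM in the GFP-positive libraries, against 4.79, 0, 0.89 and 6.31 TPM in the controls. Every GFP-positive library was far above every control (adjusted p = 1.41e-07, log2 fold change 7.77 with SE 0.54, or 8.2 rescaled). Ccl5, a chemokine for T cells and monocytes, stood at 1395, 1249, 825 and 865 TPM in the GFP-positive libraries, against 1.43, 4.96, 5.85 and 5.31 TPM in the controls, with GFP-positive libraries 1 and 2 the highest (adjusted p = 2.35e-09, log2 fold change 7.72 with SE 0.32, or 8.25 rescaled). Cxcl13, the chemokine that attracts B cells, stood at 382, 155, 173 and 132 TPM in the GFP-positive libraries, highest in library 1, and was listed at 0 in every control (adjusted p = 8.51e-09).

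Acod1 (chr14:103046977-103056573, plus strand), which makes itaconate from a citrate-cycle intermediate, stood at 173, 255, 147 and 159.8 TPM in the GFP-positive libraries, against 0, 0, 0 and 0.62 TPM in the controls. A control reached 0.62 TPM and the other 3 were listed at 0 (adjusted p = 1.43e-10, log2 fold change 7.32 with SE 0.21, or 7.59 rescaled). Ccl7, a monocyte chemoattractant, averaged 773 ± 206 TPM in GFP-positive libraries and 4.21 ± 2.4 TPM in controls (log2 fold change 7.31, SE 0.32, or 7.82 rescaled). Slfn4, an interferon-induced schlafen gene of myeloid cells, stood at 64.8, 189, 389.5 and 223 TPM in the GFP-positive libraries, against 0.57, 0.16, 0 and 0.23 TPM in the controls, lowest in GFP-positive library 1 and highest in library 3 (adjusted p = 1.63e-07, log2 fold change 7.22 with SE 0.51, or 7.51 rescaled). Ifi205, an interferon-activated gene of the p200 family, averaged 192 ± 72.9 TPM in GFP-positive libraries and 0.255 ± 0.226 TPM in controls (log2 fold change 7.2, SE 0.3, or 7.49 rescaled). Ch25h, the enzyme that makes 25-hydroxycholesterol, stood at 280.0, 298, 296 and 325 TPM in the GFP-positive libraries, against 4.37, 0.93, 0.33 and 0.32 TPM in the controls, close to even within the GFP-positive group (adjusted p = 6.25e-08, log2 fold change 7.18 with SE 0.45, or 7.57 rescaled). Serpina3g, Ly6c2, Slfn4 and Ifi205 belong to families of near-identical genes whose reads the authors' counting could split between copies, so their single-gene values are uncertain.

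**Figure D2:**
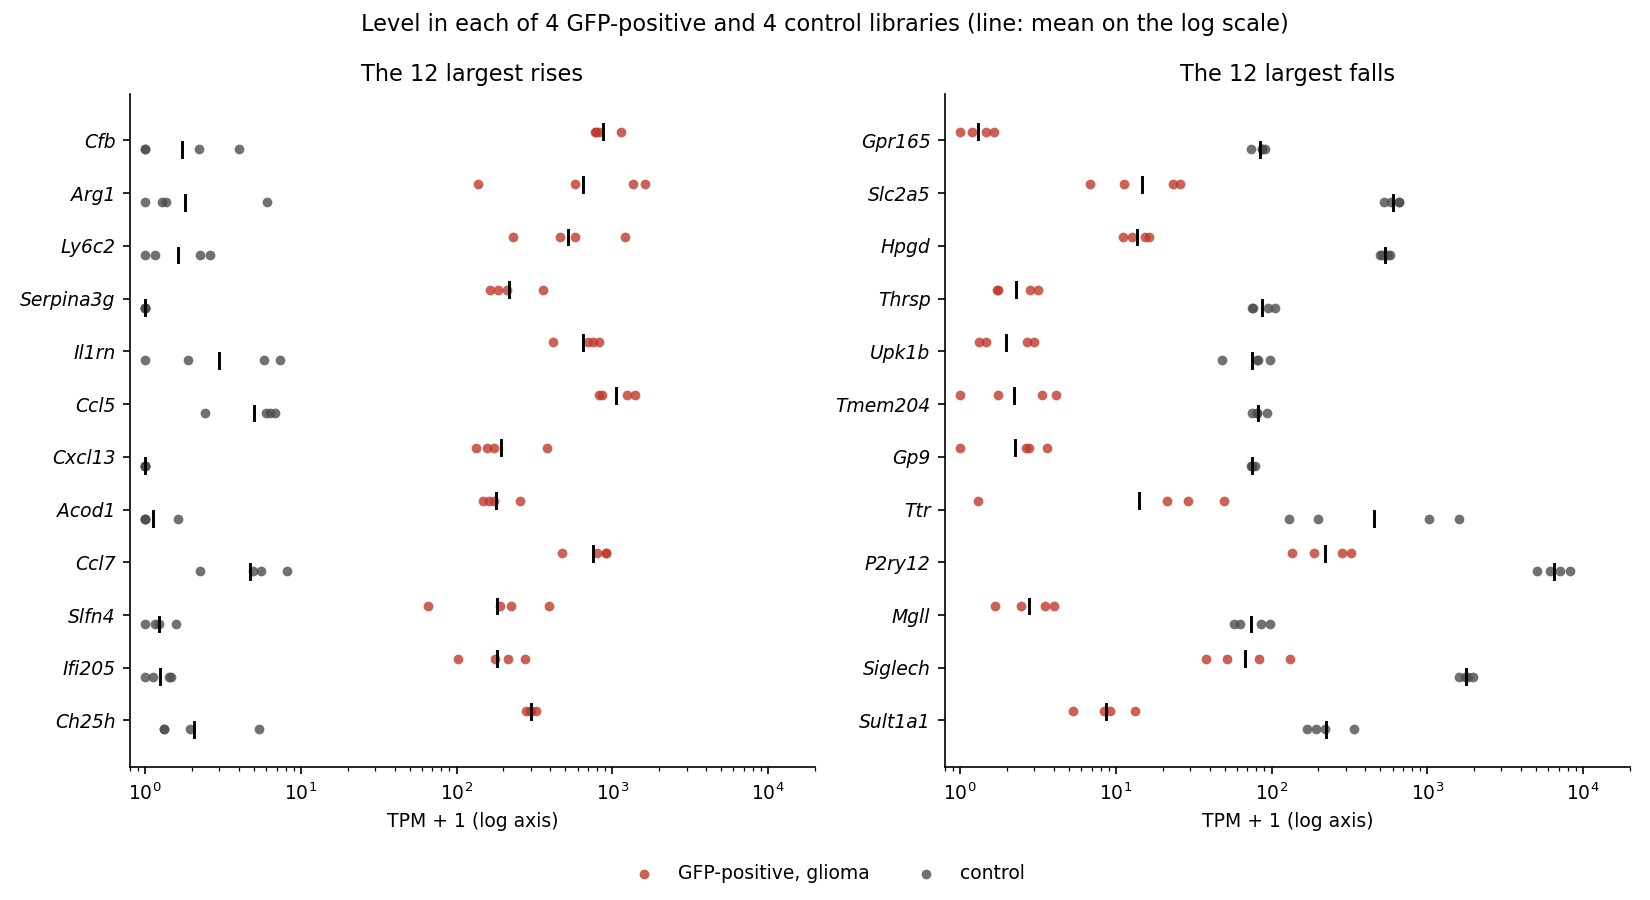
TPM on a log axis (as TPM + 1) of the 12 genes with the largest rises and the 12 with the largest falls, 1 point per library, GFP-positive above control, with the mean on the log scale as a bar. The libraries of both groups do not overlap for any gene shown, which the choice of genes requires. Cfb, for example, lay between 778 and 1129.8 TPM in GFP-positive libraries and at 3 TPM or below in controls.

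The 12 largest falls were led by Gpr165, an orphan G protein-coupled receptor, at 0.66, 0.2, 0 and 0.47 TPM in the GFP-positive libraries, against 85.6, 72.5, 90.3 and 86.3 TPM in the controls. Every control was high and no GFP-positive library reached 1 TPM (adjusted p = 6.67e-08, log2 fold change -6.01 with SE 0.38, or -5.59 rescaled). Slc2a5, the fructose transporter GLUT5 of microglia, stood at 24.8, 22.3, 5.82 and 10.2 TPM in the GFP-positive libraries, against 588, 530.5, 658 and 654 TPM in the controls, lowest in GFP-positive library 3 and with no overlap (adjusted p = 1.84e-07, log2 fold change -5.37 with SE 0.38, or -4.78 rescaled). Hpgd, the dehydrogenase that degrades prostaglandins, averaged 12.9 ± 2.47 TPM in GFP-positive libraries and 537 ± 35 TPM in controls (log2 fold change -5.29, SE 0.25, or -4.69 rescaled).

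P2ry12 (chr3:59216272-59262871, minus strand), the ADP receptor of microglial processes, stood at 323, 284, 134 and 186 TPM in the GFP-positive libraries, against 6120.2, 5068, 8323 and 7128 TPM in the controls. GFP-positive library 3 was the lowest and control library 3 the highest (adjusted p = 1.80e-07, log2 fold change -4.9 with SE 0.35, or -4.29 rescaled). Siglech, a sialic acid-binding lectin of microglia, stood at 130.1, 81.7, 36.8 and 50.9 TPM in the GFP-positive libraries, against 1818, 1603, 1964 and 1754 TPM in the controls, again lowest in GFP-positive library 3 (adjusted p = 4.85e-07, log2 fold change -4.71 with SE 0.38, or -4.1 rescaled). Mgll, the lipase that degrades the endocannabinoid 2-arachidonoylglycerol, averaged 1.91 ± 1.04 TPM in GFP-positive libraries and 75.1 ± 19.1 TPM in controls (log2 fold change -4.75, SE 0.41, or -4.23 rescaled). Sult1a1, a phenol sulfotransferase, averaged 8.05 ± 3.29 TPM in GFP-positive libraries and 229.8 ± 76.3 TPM in controls (log2 fold change -4.69, SE 0.32, or -4.11 rescaled).

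Thrsp, a nuclear protein of lipogenesis, averaged 1.37 ± 0.743 TPM in GFP-positive libraries and 86.7 ± 14.4 TPM in controls (log2 fold change -5.25, SE 0.33, or -4.75 rescaled). The tetraspanin Upk1b averaged 1.11 ± 0.837 TPM in GFP-positive libraries and 75.9 ± 20.8 TPM in controls (log2 fold change -5.23, SE 0.38, or -4.75 rescaled). The membrane protein Tmem204 averaged 1.55 ± 1.43 TPM in GFP-positive libraries and 81.5 ± 8.11 TPM in controls (log2 fold change -5.22, SE 0.41, or -4.72 rescaled). Gp9, a subunit of the platelet von Willebrand factor receptor, averaged 1.5 ± 1.09 TPM in GFP-positive libraries and 74.4 ± 1.92 TPM in controls (log2 fold change -5.06, SE 0.36, or -4.57 rescaled). Ttr, the transthyretin made by choroid plexus, stood at 28, 0.3, 48.5 and 20.3 TPM in the GFP-positive libraries, against 1023, 129, 1589.9 and 199 TPM in the controls, and was the least even of the 12 (adjusted p = 0.00145, log2 fold change -5.01 with SE 1.1, or -4.44 rescaled). The 12 choroid plexus markers summed to 11.1 to 54.8 TPM in GFP-positive libraries and 162 to 1930 TPM in controls, and the part of this tissue in the fall of Ttr was not tested.

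Gene lists were described by how many members rose and fell, beside 17.7% and 45.9% of all tested genes. The type I interferon-stimulated list had 33 of 34 tested members higher and none lower (median log2 fold change 4.69, or 5.24 rescaled), against -0.51 for all genes. Isg15, a ubiquitin-like modifier, stood at 507, 534, 681 and 553 TPM in the GFP-positive libraries, against 12.3, 9.85, 7.81 and 6.05 TPM in the controls (adjusted p = 7.23e-10, log2 fold change 5.86 with SE 0.22, or 6.43 rescaled). Oas1a, an enzyme that makes 2′-5′ oligoadenylates to switch on RNase L, stood at 255, 242, 307 and 266 TPM in the GFP-positive libraries, against 7.47, 8.2, 6.76 and 9.64 TPM in the controls (adjusted p = 5.83e-10, log2 fold change 4.9 with SE 0.17, or 5.46 rescaled). Its promoter is the one above with 2 matches. Oasl2, whose promoter window held none, averaged 385 ± 48.2 TPM in GFP-positive libraries and 7.42 ± 2.26 TPM in controls (log2 fold change 5.55, SE 0.2, or 6.11 rescaled). Ifi204, a p200 family gene, averaged 418 ± 47.5 TPM in GFP-positive libraries and 8.99 ± 3.07 TPM in controls (log2 fold change 5.43, SE 0.2, or 6.0 rescaled). The member without a call was Irf9, the DNA-binding subunit of the interferon-activated factor ISGF3, which averaged 91.6 ± 5.69 TPM in GFP-positive libraries and 78 ± 9.91 TPM in controls (adjusted p = 0.0953, log2 fold change 0.24 with SE 0.12, or 0.84 rescaled). It was called higher after rescaling and without control library 2.

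All 16 tested interferon-gamma-inducible GTPases and guanylate-binding proteins, which act on the vacuoles of intracellular pathogens, were higher (median log2 fold change 5.38, or 5.71 rescaled). Gbp6 averaged 229 ± 43.9 TPM in GFP-positive libraries and 1.14 ± 0.912 TPM in controls (log2 fold change 6.83, SE 0.28, or 7.23 rescaled). Gbp2 averaged 455 ± 46.6 TPM in GFP-positive libraries and 5.55 ± 3.4 TPM in controls (log2 fold change 6.24, SE 0.26, or 6.78 rescaled). Iigp1 averaged 287 ± 28.4 TPM in GFP-positive libraries and 1.44 ± 1.41 TPM in controls (log2 fold change 7.09, SE 0.35, or 7.49 rescaled). Gbp3 averaged 156 ± 18.5 TPM in GFP-positive libraries and 14.4 ± 3.14 TPM in controls (log2 fold change 3.37, SE 0.17, or 3.95 rescaled). These loci hold close copies, so values of single genes are uncertain.

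MHC class I and peptide loading genes rose in all 20 tested members (median log2 fold change 2.02, or 2.63 rescaled). H2-K1, a classical heavy chain that shows peptides to CD8 T cells, stood at 7974, 8029, 7253 and 6243 TPM in the GFP-positive libraries, against 953, 941, 855 and 938 TPM in the controls, with no overlap (adjusted p = 5.03e-10, log2 fold change 2.99 with SE 0.1, or 3.6 rescaled). H2-D1, the other classical heavy chain, averaged 4221 ± 608 TPM in GFP-positive libraries and 548 ± 43 TPM in controls (log2 fold change 2.93, SE 0.11, or 3.55 rescaled). Tap1, a subunit of the peptide transporter, averaged 361 ± 21.7 TPM in GFP-positive libraries and 44.9 ± 5.11 TPM in controls (log2 fold change 2.98, SE 0.12, or 3.59 rescaled). The class Ib gene H2-Q7 averaged 913 ± 159 TPM in GFP-positive libraries and 9.3 ± 6.9 TPM in controls (log2 fold change 6.66, SE 0.32, or 7.22 rescaled), with near-identical neighbours that could share its reads. Of 15 MHC class II presentation genes 10 rose and 1 fell, or 12 and 0 after rescaling (median log2 fold change 1.66, or 2.27 rescaled). Cd74, the invariant chain, stood at 9005, 10511, 14029 and 9042 TPM in the GFP-positive libraries, against 1079, 348, 489.5 and 612 TPM in the controls, and control library 1 was the highest control (adjusted p = 8.93e-08, log2 fold change 4.17 with SE 0.27, or 4.78 rescaled). H2-Aa, a class II alpha chain, followed the same order at 4228, 5440.1, 7516 and 5039 TPM in the GFP-positive libraries, against 689, 190.4, 289 and 346 TPM in the controls (adjusted p = 4.05e-07, log2 fold change 4.0 with SE 0.31, or 4.61 rescaled). Cd40, the costimulatory receptor, averaged 132 ± 13.9 TPM in GFP-positive libraries and 2.25 ± 1.63 TPM in controls (log2 fold change 5.56, SE 0.39, or 5.99 rescaled). The member that fell was H2-Ob, a subunit of the peptide exchange modulator H2-O, which averaged 40.8 ± 16.6 TPM in GFP-positive libraries and 65.6 ± 12.4 TPM in controls (adjusted p = 0.0208, log2 fold change -0.74 with SE 0.25, or -0.14 rescaled). Its call was lost after rescaling, without GFP-positive library 4 and without control library 3. Ctss, the protease that trims the invariant chain, was not called and averaged 11314 ± 1839 TPM in GFP-positive libraries and 10142 ± 813 TPM in controls (adjusted p = 0.396, log2 fold change 0.15 with SE 0.15, or 0.76 rescaled).

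**Figure D3:**
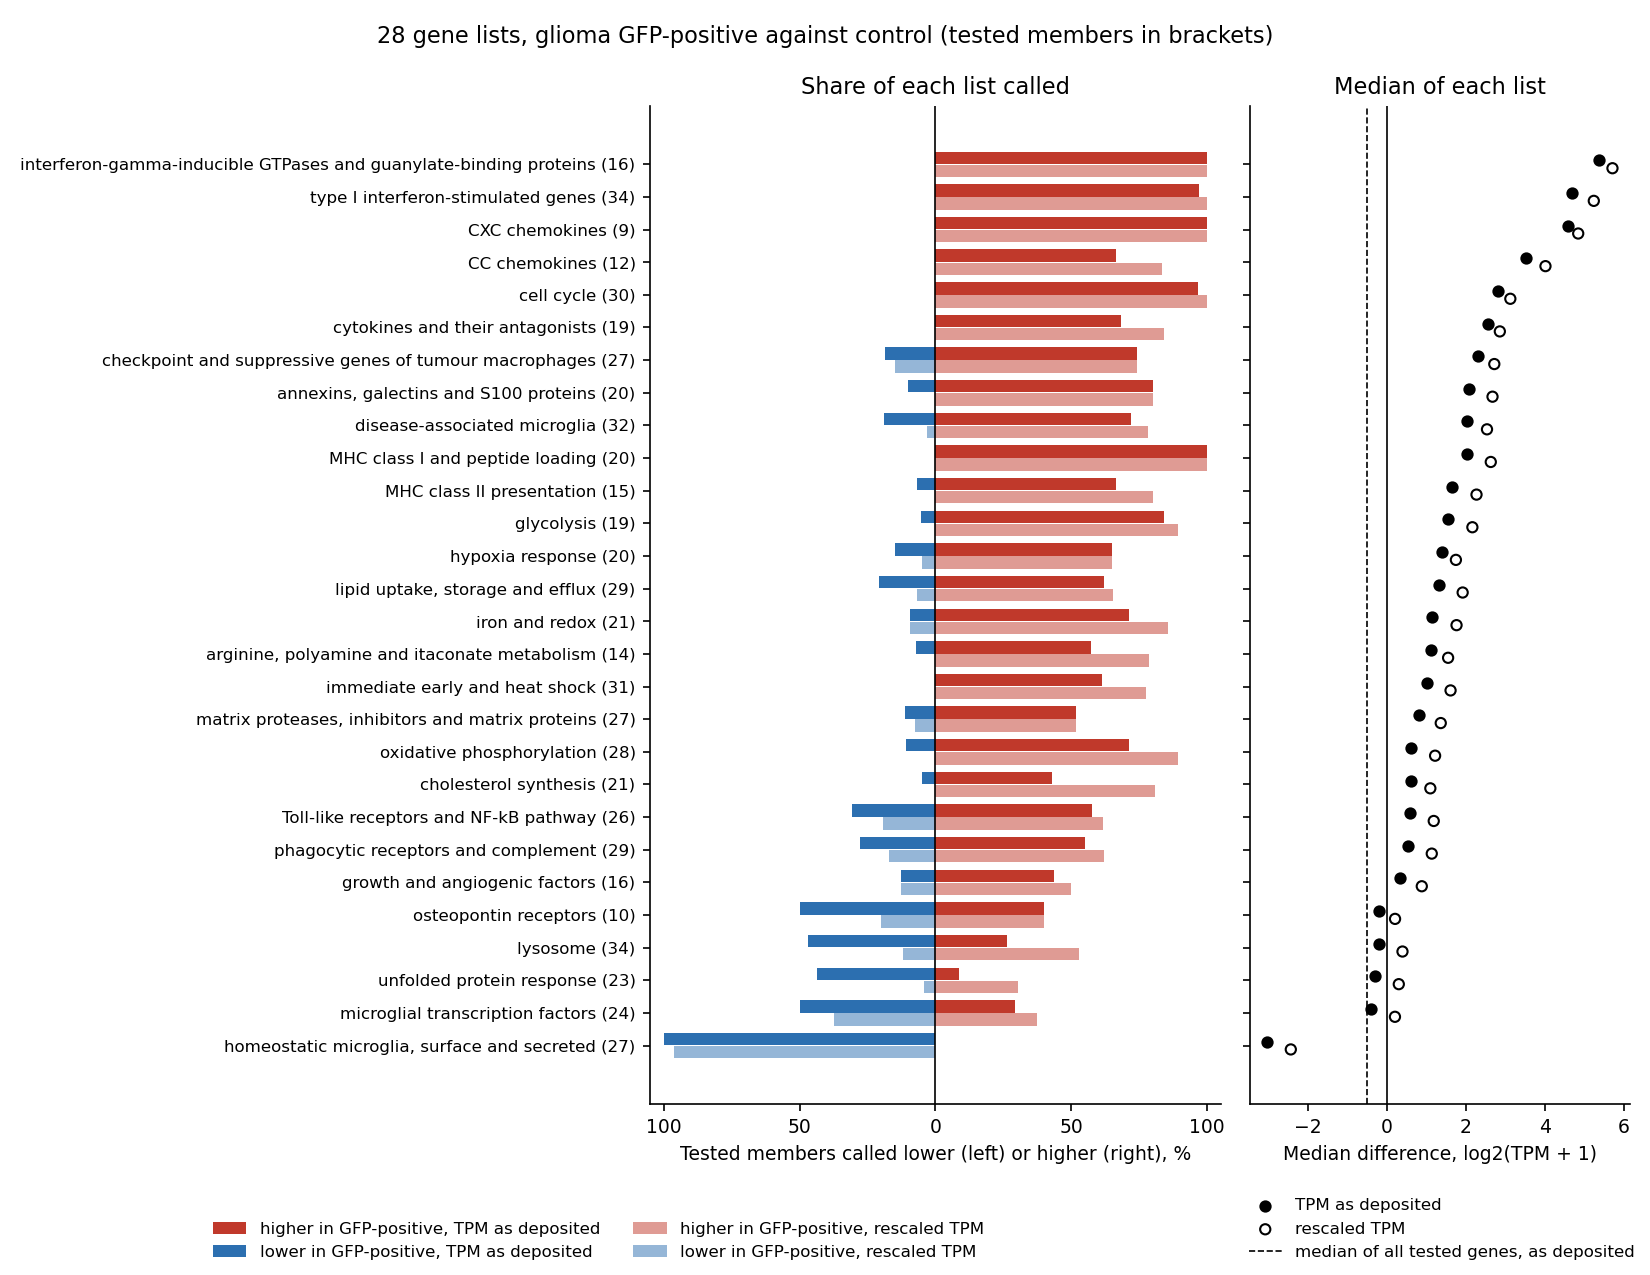
For 28 gene lists, the percentage of tested members called higher (right of 0) and lower (left of 0) in GFP-positive than in control libraries, and in the second panel the median log2 fold change of the list, on TPM as deposited (full colour, filled points) and after rescaling (pale, open points). The dashed line is the median of all tested genes, -0.51. The interferon and CXC chemokine lists have the highest medians of the 28, from 4.59 to 5.38, and the homeostatic list, at -3.04, has the lowest.

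Of 12 tested CC chemokines 8 rose and none fell, or 10 and 0 after rescaling (median log2 fold change 3.53, or 4.02 rescaled), and all 9 CXC chemokines rose (median log2 fold change 4.59, or 4.85 rescaled). Ccl2, the main ligand of CCR2 on monocytes, stood at 1399, 1495, 1334 and 1274 TPM in the GFP-positive libraries, against 94.5, 42.9, 94.3 and 88 TPM in the controls, with no overlap (adjusted p = 1.99e-08, log2 fold change 4.15 with SE 0.22, or 4.76 rescaled). Ccl3, a ligand of CCR1, averaged 1504 ± 358 TPM in GFP-positive libraries and 165 ± 43.9 TPM in controls (log2 fold change 3.19, SE 0.2, or 3.8 rescaled). Ccl8 stood at 70.8, 227, 68.8 and 274 TPM in GFP-positive libraries, high in libraries 2 and 4, and was listed at 0 in all controls (adjusted p = 1.07e-07). Cxcl9, Cxcl10 and Cxcl11, the interferon-induced ligands of CXCR3 on T and NK cells, rose together. Cxcl10 stood at 578, 611, 532 and 552 TPM in the GFP-positive libraries, against 9.78, 1.91, 4.41 and 7.51 TPM in the controls (adjusted p = 8.32e-09, log2 fold change 6.53 with SE 0.32, or 7.06 rescaled). Cxcl9 averaged 55.8 ± 12.6 TPM in GFP-positive libraries and 0.9 ± 1.53 TPM in controls (log2 fold change 5.16, SE 0.39, or 5.48 rescaled). Cxcl11 averaged 26.4 ± 1.71 TPM in GFP-positive libraries and 0.17 ± 0.34 TPM in controls (log2 fold change 4.59, SE 0.3, or 4.85 rescaled). Cxcl16, the membrane-bound ligand of CXCR6, averaged 692 ± 88.4 TPM in GFP-positive libraries and 75.5 ± 12.2 TPM in controls (log2 fold change 3.18, SE 0.18, or 3.79 rescaled).

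Among 19 cytokines and antagonists 13 rose and none fell, or 16 and 0 after rescaling (median log2 fold change 2.55, or 2.86 rescaled). Il18bp, the secreted inhibitor of interleukin 18, stood at 405, 398, 378 and 291 TPM in the GFP-positive libraries, against 6.61, 6.34, 5.51 and 6.47 TPM in the controls, and the controls were even (adjusted p = 1.43e-10, log2 fold change 5.66 with SE 0.16, or 6.22 rescaled). Tnf stood at 491, 666, 409 and 333 TPM in the GFP-positive libraries, against 52.5, 11.1, 19.9 and 16.7 TPM in the controls, with control library 1 the highest control (adjusted p = 8.03e-07, log2 fold change 4.38 with SE 0.37, or 4.97 rescaled). Il1a averaged 258 ± 81.3 TPM in GFP-positive libraries and 42.5 ± 10.5 TPM in controls (log2 fold change 2.55, SE 0.23, or 3.15 rescaled). Osm, oncostatin M, averaged 194 ± 47.4 TPM in GFP-positive libraries and 12.3 ± 2.76 TPM in controls (log2 fold change 3.87, SE 0.23, or 4.45 rescaled). Agonists and antagonists of the interleukin 1 family were thus both among the genes that rose.

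Complement and phagocytic genes moved in both directions, 16 higher and 8 lower of 29, or 18 and 5 after rescaling (median log2 fold change 0.52, or 1.14 rescaled). C3, the central complement protein, stood at 171, 353, 287 and 253 TPM in the GFP-positive libraries, against 1.1, 2.34, 1.21 and 2.53 TPM in the controls, lowest in GFP-positive library 1 (adjusted p = 5.83e-10, log2 fold change 6.57 with SE 0.23, or 7.03 rescaled). Fcgr4, an activating Fc receptor, averaged 853 ± 97.5 TPM in GFP-positive libraries and 40.9 ± 16.8 TPM in controls (log2 fold change 4.44, SE 0.24, or 5.04 rescaled). Axl and Mertk, both receptors for apoptotic cells, moved apart. Axl averaged 374 ± 48.8 TPM in GFP-positive libraries and 19.7 ± 5.35 TPM in controls (log2 fold change 4.21, SE 0.21, or 4.8 rescaled). Mertk averaged 80.8 ± 22 TPM in GFP-positive libraries and 319.9 ± 10.6 TPM in controls (log2 fold change -2.01, SE 0.2, or -1.4 rescaled). Itgax, the CD11c integrin subunit, rose and averaged 201 ± 38.1 TPM in GFP-positive libraries and 7.54 ± 0.964 TPM in controls (log2 fold change 4.55, SE 0.21, or 5.11 rescaled).

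The Toll-like receptor and NF-kB list was also mixed, with 15 higher and 8 lower of 26, or 16 and 5 after rescaling (median log2 fold change 0.59, or 1.19 rescaled). Tlr2, a receptor for bacterial lipopeptides, averaged 304 ± 51.4 TPM in GFP-positive libraries and 114 ± 9.31 TPM in controls (log2 fold change 1.4, SE 0.12, or 2.0 rescaled). Tlr4, the receptor for lipopolysaccharide, averaged 33.8 ± 4.94 TPM in GFP-positive libraries and 73.3 ± 1.68 TPM in controls (log2 fold change -1.11, SE 0.14, or -0.51 rescaled). Nfkb1, the p105 precursor, averaged 45.5 ± 6.15 TPM in GFP-positive libraries and 120.0 ± 12.2 TPM in controls (log2 fold change -1.38, SE 0.12, or -0.78 rescaled). The NF-kB inhibitor Tnfaip3 averaged 168 ± 57.6 TPM in GFP-positive libraries and 47.4 ± 3.31 TPM in controls (log2 fold change 1.73, SE 0.27, or 2.34 rescaled). The nuclear cofactor Nfkbiz averaged 220.1 ± 48.6 TPM in GFP-positive libraries and 59.97 ± 17.6 TPM in controls (log2 fold change 1.87, SE 0.2, or 2.48 rescaled). Of this group Tlr4 and Nfkb1 were lower in the GFP-positive libraries and the other 3 were higher.

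Of 27 checkpoint and suppressive genes described in tumour macrophages, 20 rose and 5 fell, or 20 and 4 after rescaling (median log2 fold change 2.31, or 2.72 rescaled). Cd274, which encodes the checkpoint ligand PD-L1, stood at 106, 125, 127 and 89.3 TPM in the GFP-positive libraries, against 5.92, 3.24, 7.24 and 5.47 TPM in the controls, with no overlap (adjusted p = 4.62e-08, log2 fold change 4.15 with SE 0.25, or 4.69 rescaled). Tgfbi, a matrix protein induced by TGF-beta, stood at 806, 1470.0, 2211 and 1802 TPM in the GFP-positive libraries, against 90.6, 61.5, 66.2 and 65.8 TPM in the controls (adjusted p = 3.02e-07, log2 fold change 4.37 with SE 0.33, or 4.98 rescaled). Msr1, a scavenger receptor, averaged 175 ± 70.6 TPM in GFP-positive libraries and 1.85 ± 0.912 TPM in controls (log2 fold change 5.9, SE 0.43, or 6.35 rescaled). Siglec1, the sialoadhesin of macrophages, averaged 33.9 ± 12.5 TPM in GFP-positive libraries and 0.6 ± 0.392 TPM in controls (log2 fold change 4.4, SE 0.35, or 4.74 rescaled). GFP-positive library 1 was the lowest of its group for Tgfbi, Msr1 and Siglec1. The checkpoint gene Vsir, which encodes VISTA, went the other way at 273, 227, 206 and 177 TPM in the GFP-positive libraries, against 1497, 1423, 1551 and 1659.6 TPM in the controls (adjusted p = 8.59e-08, log2 fold change -2.81 with SE 0.18, or -2.2 rescaled). Entpd1, the CD39 enzyme that degrades extracellular ATP, averaged 269 ± 44.8 TPM in GFP-positive libraries and 668 ± 43.9 TPM in controls (log2 fold change -1.32, SE 0.14, or -0.71 rescaled). Ido1, Marco and Cd163 were below the filter. Tgfbi is also a monocyte marker here, and Siglec1 a marker of border-associated macrophages, whose list summed to 311 to 1153 TPM in GFP-positive libraries and 623 to 822 TPM in controls. Stab1 made up most of that sum in controls, at 630 TPM on average, and averaged 162 TPM in GFP-positive libraries. It was the 1 member that fell, while 7 of the 12 tested members rose.

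Arginine and itaconate metabolism held 8 rises and 1 fall among 14 genes, or 11 and 0 after rescaling (median log2 fold change 1.11, or 1.55 rescaled). Ass1, which makes the precursor of arginine from citrulline, stood at 126, 279, 409.7 and 349 TPM in the GFP-positive libraries, against 1.89, 0.74, 1.86 and 9.3 TPM in the controls (adjusted p = 4.82e-07, log2 fold change 6.26 with SE 0.5, or 6.74 rescaled). Nos2, the inducible nitric oxide synthase that competes with arginase for arginine, stood at 3.43, 10.7, 7.63 and 8.28 TPM in GFP-positive libraries and was listed at 0 in all controls (adjusted p = 5.70e-06). Odc1, which makes the polyamine putrescine, averaged 27.1 ± 3.74 TPM in GFP-positive libraries and 4.96 ± 2.46 TPM in controls (log2 fold change 2.32, SE 0.31, or 2.85 rescaled). Arg1 and Nos2 were thus both detected in every GFP-positive library, Nos2 at a far lower level.

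Iron and redox genes rose in 15 and fell in 2 of 21 members, or 18 and 2 after rescaling (median log2 fold change 1.15, or 1.76 rescaled). Fth1, the heavy chain of the iron store ferritin, averaged 13009 ± 2219 TPM in GFP-positive libraries and 2204 ± 310.0 TPM in controls (log2 fold change 2.55, SE 0.17, or 3.17 rescaled). Ftl1, its light chain, averaged 9557 ± 1026 TPM in GFP-positive libraries and 2274 ± 204 TPM in controls (log2 fold change 2.07, SE 0.12, or 2.68 rescaled). Prdx1, a peroxiredoxin, averaged 1174 ± 71.4 TPM in GFP-positive libraries and 330.1 ± 18.7 TPM in controls (log2 fold change 1.83, SE 0.09, or 2.44 rescaled). Slc40a1, the iron exporter ferroportin, went the other way at 7.75, 14.1, 9.57 and 20.6 TPM in the GFP-positive libraries, against 159.9, 158, 202 and 186 TPM in the controls (adjusted p = 3.16e-06, log2 fold change -3.74 with SE 0.38, or -3.15 rescaled). Hmox1, which frees iron from haem, averaged 201 ± 35.5 TPM in GFP-positive libraries and 58.7 ± 20.3 TPM in controls (log2 fold change 1.81, SE 0.21, or 2.41 rescaled).

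Glycolysis genes were higher in 16 of 19 members and lower in 1, or 17 and 0 after rescaling (median log2 fold change 1.56, or 2.16 rescaled). Pkm, which encodes pyruvate kinase, stood at 1557, 1606, 1362 and 1577 TPM in the GFP-positive libraries, against 297, 323, 213 and 244 TPM in the controls, even within both groups and with no overlap (adjusted p = 3.22e-08, log2 fold change 2.52 with SE 0.15, or 3.13 rescaled). Tpi1 averaged 913 ± 106 TPM in GFP-positive libraries and 174 ± 32.8 TPM in controls (log2 fold change 2.4, SE 0.16, or 3.01 rescaled). Aldoa averaged 1635 ± 126 TPM in GFP-positive libraries and 547 ± 26.1 TPM in controls (log2 fold change 1.58, SE 0.11, or 2.19 rescaled). The phosphofructokinase gene Pfkp averaged 108 ± 16.2 TPM in GFP-positive libraries and 8.64 ± 2.74 TPM in controls (log2 fold change 3.53, SE 0.24, or 4.1 rescaled). The member that fell was the hexokinase Hk2, which averaged 99.6 ± 8.57 TPM in GFP-positive libraries and 156 ± 12 TPM in controls (log2 fold change -0.65, SE 0.14, or -0.04 rescaled). It lost its call after rescaling. Of 20 hypoxia response genes, several of them glycolytic, 13 rose and 3 fell, or 13 and 1 after rescaling (median log2 fold change 1.4, or 1.75 rescaled). Ldha, which makes lactate, averaged 1358 ± 134 TPM in GFP-positive libraries and 304 ± 42.2 TPM in controls (log2 fold change 2.16, SE 0.15, or 2.77 rescaled). Pgk1 averaged 436 ± 81.4 TPM in GFP-positive libraries and 86 ± 12 TPM in controls (log2 fold change 2.32, SE 0.18, or 2.93 rescaled). Bnip3, a mitophagy receptor, averaged 132 ± 34.3 TPM in GFP-positive libraries and 38.8 ± 3.32 TPM in controls (log2 fold change 1.71, SE 0.2, or 2.31 rescaled). Egln3, a hypoxia-induced prolyl hydroxylase, averaged 10.1 ± 3.21 TPM in GFP-positive libraries and 0.652 ± 0.336 TPM in controls (log2 fold change 2.71, SE 0.3, or 3.06 rescaled). Kdm3a, a histone demethylase of the same list, fell and averaged 28.1 ± 6.16 TPM in GFP-positive libraries and 59.8 ± 6.5 TPM in controls (log2 fold change -1.08, SE 0.15, or -0.48 rescaled).

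Oxidative phosphorylation subunits rose in 20 and fell in 3 of 28 members, or 25 and 0 after rescaling (median log2 fold change 0.61, or 1.22 rescaled). Uqcrq, a subunit of complex III, averaged 453 ± 33.8 TPM in GFP-positive libraries and 170.2 ± 15.1 TPM in controls (log2 fold change 1.41, SE 0.1, or 2.02 rescaled). Cox8a, of complex IV, averaged 924 ± 113 TPM in GFP-positive libraries and 371 ± 14 TPM in controls (log2 fold change 1.31, SE 0.11, or 1.92 rescaled). The changes were smaller than those of glycolysis genes by median, and that difference was not tested.

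Lipid uptake, storage and efflux genes rose in 18 and fell in 6 of 29 members, or 19 and 2 after rescaling (median log2 fold change 1.33, or 1.92 rescaled). Apoe, the main lipid carrier of the brain, stood at 28222, 28917, 24314 and 30474 TPM in the GFP-positive libraries, against 2727, 2049, 1297 and 1647 TPM in the controls, with no overlap (adjusted p = 5.31e-08, log2 fold change 3.91 with SE 0.24, or 4.52 rescaled). Fabp5, a fatty acid-binding protein, averaged 119.6 ± 31.3 TPM in GFP-positive libraries and 2.51 ± 1.6 TPM in controls (log2 fold change 5.2, SE 0.34, or 5.67 rescaled). Plin2, a coat protein of lipid droplets, averaged 304 ± 24.4 TPM in GFP-positive libraries and 82.9 ± 9.62 TPM in controls (log2 fold change 1.87, SE 0.13, or 2.47 rescaled). Npc1, the lysosomal cholesterol exporter, fell and averaged 27.2 ± 5.25 TPM in GFP-positive libraries and 72 ± 5.73 TPM in controls (log2 fold change -1.39, SE 0.16, or -0.79 rescaled). Cholesterol synthesis depended on the scale, with 9 rises and 1 fall among 21 genes on the deposited scale and 17 and 0 after rescaling (median log2 fold change 0.61, or 1.1 rescaled). Sqle, the squalene epoxidase, averaged 14.1 ± 5.0 TPM in GFP-positive libraries and 1.86 ± 0.754 TPM in controls (log2 fold change 2.38, SE 0.3, or 2.83 rescaled). Insig1 averaged 42 ± 7.26 TPM in GFP-positive libraries and 11 ± 1.78 TPM in controls (log2 fold change 1.84, SE 0.24, or 2.41 rescaled). Idi1 averaged 24.9 ± 11.7 TPM in GFP-positive libraries and 6.78 ± 2.18 TPM in controls (log2 fold change 1.64, SE 0.37, or 2.19 rescaled). Idi1 was lowest in GFP-positive library 1.

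The homeostatic microglia list fell in all 27 tested members, 26 of them also after rescaling (median log2 fold change -3.04, or -2.43 rescaled), beside 45.9% of all genes. Cst3, the secreted protease inhibitor cystatin C and the most abundant gene of the list, stood at 5893, 5944, 4269 and 5488 TPM in the GFP-positive libraries, against 67727, 64465, 68789 and 64563 TPM in the controls. Each control was at least 10-fold above each GFP-positive library (adjusted p = 4.19e-08, log2 fold change -3.63 with SE 0.22, or -3.02 rescaled). Selplg, a P-selectin ligand, averaged 453 ± 93.4 TPM in GFP-positive libraries and 5082 ± 176 TPM in controls (log2 fold change -3.51, SE 0.19, or -2.9 rescaled). Ltc4s, a leukotriene synthase, averaged 30.2 ± 8.05 TPM in GFP-positive libraries and 567 ± 40.6 TPM in controls (log2 fold change -4.22, SE 0.23, or -3.61 rescaled). Cx3cr1 stood at 481, 433, 292 and 390.0 TPM in the GFP-positive libraries, against 2855, 2965, 3387 and 2972 TPM in the controls (adjusted p = 6.31e-07, log2 fold change -2.95 with SE 0.24, or -2.34 rescaled), and Csf1r, given above, fell as well (adjusted p = 4.81e-07, log2 fold change -2.15 with SE 0.17, or -1.54 rescaled). Tmem119 fell by more (adjusted p = 3.39e-06, log2 fold change -3.57 with SE 0.37, or -2.96 rescaled). Sparc, a secreted matrix protein of homeostatic microglia, averaged 286 ± 131 TPM in GFP-positive libraries and 2338 ± 127 TPM in controls (log2 fold change -3.17, SE 0.38, or -2.56 rescaled).

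Of 24 microglial transcription factors 7 were higher and 12 lower, beside 17.7% and 45.9% of all tested genes. After rescaling 9 were higher and 9 lower, beside 28.2% and 23.6% (median log2 fold change -0.39, or 0.2 rescaled). The share lower on the deposited scale was thus near that of all genes. Sall1, which maintains microglial identity, stood at 37.6, 18.9, 11.7 and 15.6 TPM in the GFP-positive libraries, against 162, 151, 205 and 193 TPM in the controls, lowest in GFP-positive library 3 (adjusted p = 4.34e-06, log2 fold change -3.14 with SE 0.33, or -2.54 rescaled). Maf averaged 12.5 ± 2.65 TPM in GFP-positive libraries and 73.5 ± 12 TPM in controls (log2 fold change -2.47, SE 0.24, or -1.88 rescaled). Mef2a averaged 40.2 ± 9.27 TPM in GFP-positive libraries and 168 ± 21.2 TPM in controls (log2 fold change -2.06, SE 0.18, or -1.45 rescaled). Mef2c averaged 78.5 ± 16.5 TPM in GFP-positive libraries and 322 ± 34 TPM in controls (log2 fold change -2.04, SE 0.21, or -1.43 rescaled). The TGF-beta effector Smad3 averaged 9.1 ± 1.92 TPM in GFP-positive libraries and 41.9 ± 3.84 TPM in controls (log2 fold change -2.1, SE 0.21, or -1.52 rescaled). Atf3, a stress-induced factor, rose and averaged 331 ± 62.5 TPM in GFP-positive libraries and 66.3 ± 15.8 TPM in controls (log2 fold change 2.32, SE 0.23, or 2.92 rescaled).

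The disease-associated microglia list, built from genes of amyloid plaque microglia, rose in 23 and fell in 6 of 32 members, or 25 and 1 after rescaling (median log2 fold change 2.04, or 2.54 rescaled). Without GFP-positive library 3, 3 members fell. Gpnmb, a transmembrane glycoprotein of lipid-laden macrophages, stood at 165, 114, 143 and 129.6 TPM in the GFP-positive libraries, against 0, 0, 0.24 and 0 TPM in the controls, with 3 controls listed at 0 (adjusted p = 2.08e-10, log2 fold change 7.03 with SE 0.21, or 7.28 rescaled). Lgals3, galectin 3, stood at 808, 1182, 1015 and 1096 TPM in the GFP-positive libraries, against 52.1, 23.4, 36.4 and 24.7 TPM in the controls (adjusted p = 1.07e-08, log2 fold change 4.93 with SE 0.25, or 5.53 rescaled). Cd52 averaged 1936 ± 92.6 TPM in GFP-positive libraries and 257 ± 35.5 TPM in controls (log2 fold change 2.92, SE 0.11, or 3.53 rescaled). The growth factor Csf1 averaged 35.8 ± 17 TPM in GFP-positive libraries and 7.68 ± 2.43 TPM in controls (log2 fold change 2.02, SE 0.31, or 2.58 rescaled). Igf1, also a growth factor, averaged 37 ± 21.6 TPM in GFP-positive libraries and 1.54 ± 0.976 TPM in controls (log2 fold change 3.75, SE 0.51, or 4.18 rescaled). Trem2, the lipid-sensing receptor that the disease-associated state depends on in amyloid models, was among the falls, at 603, 546, 397 and 513 TPM in the GFP-positive libraries, against 1928, 1761, 2205 and 1914 TPM in the controls, with no overlap (adjusted p = 4.58e-06, log2 fold change -1.93 with SE 0.2, or -1.32 rescaled).

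Of 34 lysosomal genes 9 were higher and 16 lower on the deposited scale, beside 17.7% and 45.9% of all tested genes. After rescaling 18 were higher and 4 lower, beside 28.2% and 23.6% (median log2 fold change -0.21, or 0.39 rescaled). The share lower on the deposited scale was thus near that of all genes, whose split also moved with the scale. Ctsc, the cathepsin that activates granule proteases, averaged 1836 ± 215 TPM in GFP-positive libraries and 578 ± 70.6 TPM in controls (log2 fold change 1.67, SE 0.12, or 2.28 rescaled). Ctsf averaged 48.1 ± 21.9 TPM in GFP-positive libraries and 438 ± 53.4 TPM in controls (log2 fold change -3.26, SE 0.31, or -2.65 rescaled). Laptm5 averaged 1819 ± 101 TPM in GFP-positive libraries and 4424 ± 184 TPM in controls (log2 fold change -1.28, SE 0.12, or -0.67 rescaled). Tfe3, a transcription factor of lysosomal genes, averaged 59.3 ± 7.28 TPM in GFP-positive libraries and 137 ± 10.9 TPM in controls (log2 fold change -1.2, SE 0.12, or -0.59 rescaled). These 4 kept their direction on both scales.

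Annexins, galectins and S100 proteins rose in 16 and fell in 2 of 20 members, or 16 and 0 after rescaling (median log2 fold change 2.08, or 2.67 rescaled). Lgals1, galectin 1, averaged 448 ± 119 TPM in GFP-positive libraries and 23.6 ± 17.2 TPM in controls (log2 fold change 4.41, SE 0.37, or 5.0 rescaled). Lgals3bp averaged 1494 ± 349 TPM in GFP-positive libraries and 163 ± 23.9 TPM in controls (log2 fold change 3.17, SE 0.17, or 3.78 rescaled). Anxa5 averaged 518 ± 87.5 TPM in GFP-positive libraries and 67.6 ± 21.9 TPM in controls (log2 fold change 2.96, SE 0.23, or 3.57 rescaled). Among 27 matrix genes 14 rose and 3 fell, or 14 and 2 after rescaling (median log2 fold change 0.81, or 1.36 rescaled). The membrane-bound protease Mmp14 averaged 75.9 ± 16.8 TPM in GFP-positive libraries and 10.4 ± 1.73 TPM in controls (log2 fold change 2.74, SE 0.21, or 3.31 rescaled). Ecm1 averaged 123 ± 41.1 TPM in GFP-positive libraries and 3.56 ± 3.15 TPM in controls (log2 fold change 4.91, SE 0.44, or 5.4 rescaled). Thbs1, an activator of latent TGF-beta, averaged 32.4 ± 7.8 TPM in GFP-positive libraries and 7.05 ± 1.34 TPM in controls (log2 fold change 2.04, SE 0.2, or 2.59 rescaled). Mmp3, Mmp9, Adamts4, Tnc and Col1a1 were below the filter. Of 16 tested growth and angiogenic factors 7 rose and 2 fell, or 8 and 2 after rescaling (median log2 fold change 0.34, or 0.88 rescaled). Hgf, the ligand of the receptor MET, averaged 19.1 ± 2.97 TPM in GFP-positive libraries and 1.73 ± 0.808 TPM in controls (log2 fold change 2.92, SE 0.26, or 3.35 rescaled). Tgfa, a ligand of the EGF receptor, fell and averaged 7.33 ± 4.31 TPM in GFP-positive libraries and 45.9 ± 6.81 TPM in controls (log2 fold change -2.62, SE 0.34, or -2.05 rescaled).

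Cell cycle genes rose in 29 of 30 members (median log2 fold change 2.8, or 3.13 rescaled). Aurkb, the kinase of the chromosomal passenger complex, stood at 21.2, 29.2, 33.2 and 42.3 TPM in the GFP-positive libraries, against 1.73, 0.68, 0.68 and 1.52 TPM in the controls, highest in GFP-positive library 4 (adjusted p = 2.06e-07, log2 fold change 3.91 with SE 0.28, or 4.32 rescaled). Ccna2 averaged 33.7 ± 11.9 TPM in GFP-positive libraries and 1.58 ± 1.38 TPM in controls (log2 fold change 3.82, SE 0.33, or 4.24 rescaled). Ccnb2 averaged 30.3 ± 11.9 TPM in GFP-positive libraries and 0.693 ± 0.654 TPM in controls (log2 fold change 4.23, SE 0.37, or 4.57 rescaled). Ccne1 averaged 14.6 ± 4.01 TPM in GFP-positive libraries and 0.362 ± 0.422 TPM in controls (log2 fold change 3.53, SE 0.27, or 3.82 rescaled). The 3 cyclins act in successive phases of the cycle, and all 3 rose. The member without a call was Mcm7, a subunit of the replicative helicase, which averaged 39.5 ± 11.5 TPM in GFP-positive libraries and 27.1 ± 6.38 TPM in controls (adjusted p = 0.0872, log2 fold change 0.51 with SE 0.25, or 1.1 rescaled). It was called higher after rescaling and without control library 1.

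Of 31 immediate early and heat shock genes 19 rose and none fell, or 24 and 0 after rescaling (median log2 fold change 1.0, or 1.61 rescaled). Ier3 stood at 294, 609, 461 and 439.6 TPM in the GFP-positive libraries, against 43.6, 18.4, 10.6 and 16.2 TPM in the controls (adjusted p = 1.02e-06, log2 fold change 4.42 with SE 0.39, or 5.01 rescaled). Nr4a3 averaged 29.6 ± 14.8 TPM in GFP-positive libraries and 0.965 ± 0.353 TPM in controls (log2 fold change 3.84, SE 0.32, or 4.23 rescaled). Junb averaged 1262 ± 171 TPM in GFP-positive libraries and 533 ± 31 TPM in controls (log2 fold change 1.23, SE 0.15, or 1.85 rescaled). Fos, chosen after its values were seen, stood at 421, 747, 784 and 579.6 TPM in the GFP-positive libraries, against 193, 172, 167 and 169 TPM in the controls (adjusted p = 4.60e-05, log2 fold change 1.81 with SE 0.25, or 2.42 rescaled). Both groups thus held Fos well above 0, whereas the groups of the cuprizone, EAE and 5xFAD experiments averaged at most 3.47 TPM of Fos. Of 23 unfolded protein response genes 2 rose and 10 fell on the deposited scale, beside 17.7% and 45.9% of all tested genes. After rescaling 7 rose and 1 fell, beside 28.2% and 23.6% (median log2 fold change -0.31, or 0.3 rescaled). The share that fell on the deposited scale was thus near that of all genes. Without control library 2, 6 fell on the deposited scale. Herpud1 averaged 142 ± 28.6 TPM in GFP-positive libraries and 453 ± 128 TPM in controls (log2 fold change -1.65, SE 0.2, or -1.04 rescaled). Xbp1 averaged 171 ± 25.4 TPM in GFP-positive libraries and 331 ± 54.2 TPM in controls (log2 fold change -0.94, SE 0.14, or -0.33 rescaled). Trib3 averaged 9.92 ± 5.04 TPM in GFP-positive libraries and 1.28 ± 0.991 TPM in controls (log2 fold change 2.24, SE 0.47, or 2.62 rescaled). Of these, Xbp1 lost its call after rescaling.

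Among further monocyte-derived markers, Ly6a stood at 1837, 2359.6, 2977 and 2727 TPM in the GFP-positive libraries, against 22.2, 22.8, 15.9 and 158 TPM in the controls, with control library 4 far above the other controls (adjusted p = 8.26e-07, log2 fold change 6.13 with SE 0.52, or 6.72 rescaled). Itgal, a lymphocyte and monocyte integrin, averaged 97.7 ± 14.4 TPM in GFP-positive libraries and 6.34 ± 1.63 TPM in controls (log2 fold change 3.77, SE 0.21, or 4.32 rescaled). Ly6i, of the same family as Ly6c2, averaged 288 ± 135 TPM in GFP-positive libraries and 2.78 ± 1.76 TPM in controls (log2 fold change 6.29, SE 0.45, or 6.76 rescaled). Of 12 tested border-associated macrophage markers 7 rose and 1 fell, and Lyve1 was listed at 0 in all 8 libraries. Pf4 stood at 11.6, 257, 101 and 318 TPM in the GFP-positive libraries, against 17.2, 9.99, 9.14 and 2.44 TPM in the controls, so GFP-positive library 1 lay within the control range while the other 3 were above it (adjusted p = 0.00346, log2 fold change 3.47 with SE 0.87, or 4.02 rescaled). Ms4a7 averaged 294 ± 119 TPM in GFP-positive libraries and 1.29 ± 1.17 TPM in controls (log2 fold change 7.02, SE 0.46, or 7.41 rescaled). Stab1, the member that fell, averaged 162 ± 43.6 TPM in GFP-positive libraries and 630.1 ± 85.8 TPM in controls (log2 fold change -1.98, SE 0.22, or -1.37 rescaled).

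Gzmb, granzyme B of cytotoxic lymphocytes, stood at 6.81, 122, 57.6 and 14.4 TPM in GFP-positive libraries and was listed at 0 in all controls (adjusted p = 5.42e-05). GFP-positive library 2 was the highest, as it was for Nkg7 at 12.3, 84.4, 40.5 and 17.9 TPM in the GFP-positive libraries, against 0, 0, 0 and 1.18 TPM in the controls (adjusted p = 5.20e-06, log2 fold change 4.66 with SE 0.5, or 4.94 rescaled) and for the T cell kinase Lck at 8.05, 21.9, 8.98 and 7.94 TPM in the GFP-positive libraries, against 0.77, 0, 0 and 0 TPM in the controls (adjusted p = 3.50e-06, log2 fold change 3.34 with SE 0.34, or 3.59 rescaled). Without that library 7 of the 11 NK cell markers were called higher. Ccr7, the homing receptor of migratory dendritic cells, was likewise highest in library 2 at 2.94, 117, 28.1 and 24.8 TPM in the GFP-positive group, and was listed at 0 in controls (adjusted p = 1.57e-04).

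Of 13 tested dendritic cell markers 3 rose and 3 fell, beside 17.7% and 45.9% of all tested genes. The list summed to 166 to 380 TPM in GFP-positive libraries and 1884 to 2275 TPM in controls. The falls numbered 6 without GFP-positive library 2 and 5 without control library 4. Siglech, which microglia share, makes up most of that sum in controls. Of 6 tested neutrophil markers 4 rose and 1 fell, with sums of 139.7 to 212 TPM in GFP-positive libraries and 336 to 376 TPM in controls. Ly6g, Ngp, Camp, Stfa2l1 and Elane were listed at 0 in all 8 libraries. The decoy receptor Il1r2 averaged 63.3 ± 43.1 TPM in GFP-positive libraries and 3.82 ± 3.92 TPM in controls (log2 fold change 3.89, SE 0.7, or 4.33 rescaled). Csf3r, which microglia also express, averaged 87.2 ± 16.8 TPM in GFP-positive libraries and 348 ± 20.4 TPM in controls (log2 fold change -2.0, SE 0.15, or -1.39 rescaled). Of 3 tested B cell markers 1 rose and 2 fell, with sums over the list of 98.8 to 123 TPM in GFP-positive libraries and 375 to 530.1 TPM in controls. Blk was listed at 0 in all 8 libraries. The lectin Cd22 averaged 25.3 ± 7.48 TPM in GFP-positive libraries and 5.99 ± 3.91 TPM in controls. Cd79b, part of the B cell receptor, averaged 18.5 ± 5.53 TPM in GFP-positive libraries and 59.4 ± 4.81 TPM in controls.

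Neural and vascular markers were low, and their counts of called members stand beside 17.7% higher and 45.9% lower over all tested genes. Astrocyte markers (9 tested, 4 higher and 3 lower) summed to 64.6 to 80.5 TPM in GFP-positive libraries and 157 to 211 TPM in controls. The glutamate transporter gene Slc1a3, which fell, averaged 21.6 ± 13.6 TPM in GFP-positive libraries and 136 ± 21.6 TPM in controls (log2 fold change -2.77, SE 0.34, or -2.17 rescaled). It made up most of the astrocyte sum in controls, and Clu and Atp1b2 were the other falls. The 4 that rose were Aldoc, Aldh1l1, Gja1 and Gfap. The highest of these 4, Aldoc, averaged 25.9 TPM in GFP-positive libraries and 4.41 TPM in controls. Oligodendrocyte markers (6 tested, 2 higher and 1 lower) summed to 153 to 234 TPM in GFP-positive libraries and 133 to 139.6 TPM in controls. Their precursors (3 tested, 1 higher) summed to 2.77 to 7.3 TPM in GFP-positive libraries and 0.4 to 7.67 TPM in controls. Neuronal markers (3 tested, 1 higher) summed to 5.29 to 20.9 TPM in GFP-positive libraries and 4.79 to 18.6 TPM in controls. Endothelial cells and pericytes (9 tested, 4 lower) summed to 47.6 to 341 TPM in GFP-positive libraries and 59.6 to 676 TPM in controls. Vtn, vitronectin, averaged 0.892 ± 0.926 TPM in GFP-positive libraries and 30.9 ± 10.5 TPM in controls (log2 fold change -4.12, SE 0.62, or -3.66 rescaled). Erythroid genes (6 tested, none called) summed to 14.6 to 900.1 TPM in GFP-positive libraries and 6.64 to 1372 TPM in controls. The choroid plexus list had 3 tested members and all 3 fell. Enpp2, autotaxin, averaged 7.12 ± 2.58 TPM in GFP-positive libraries and 112 ± 114 TPM in controls (log2 fold change -3.23, SE 0.79, or -2.65 rescaled). The part of these cells in the results was not tested.

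**Figure D4:**
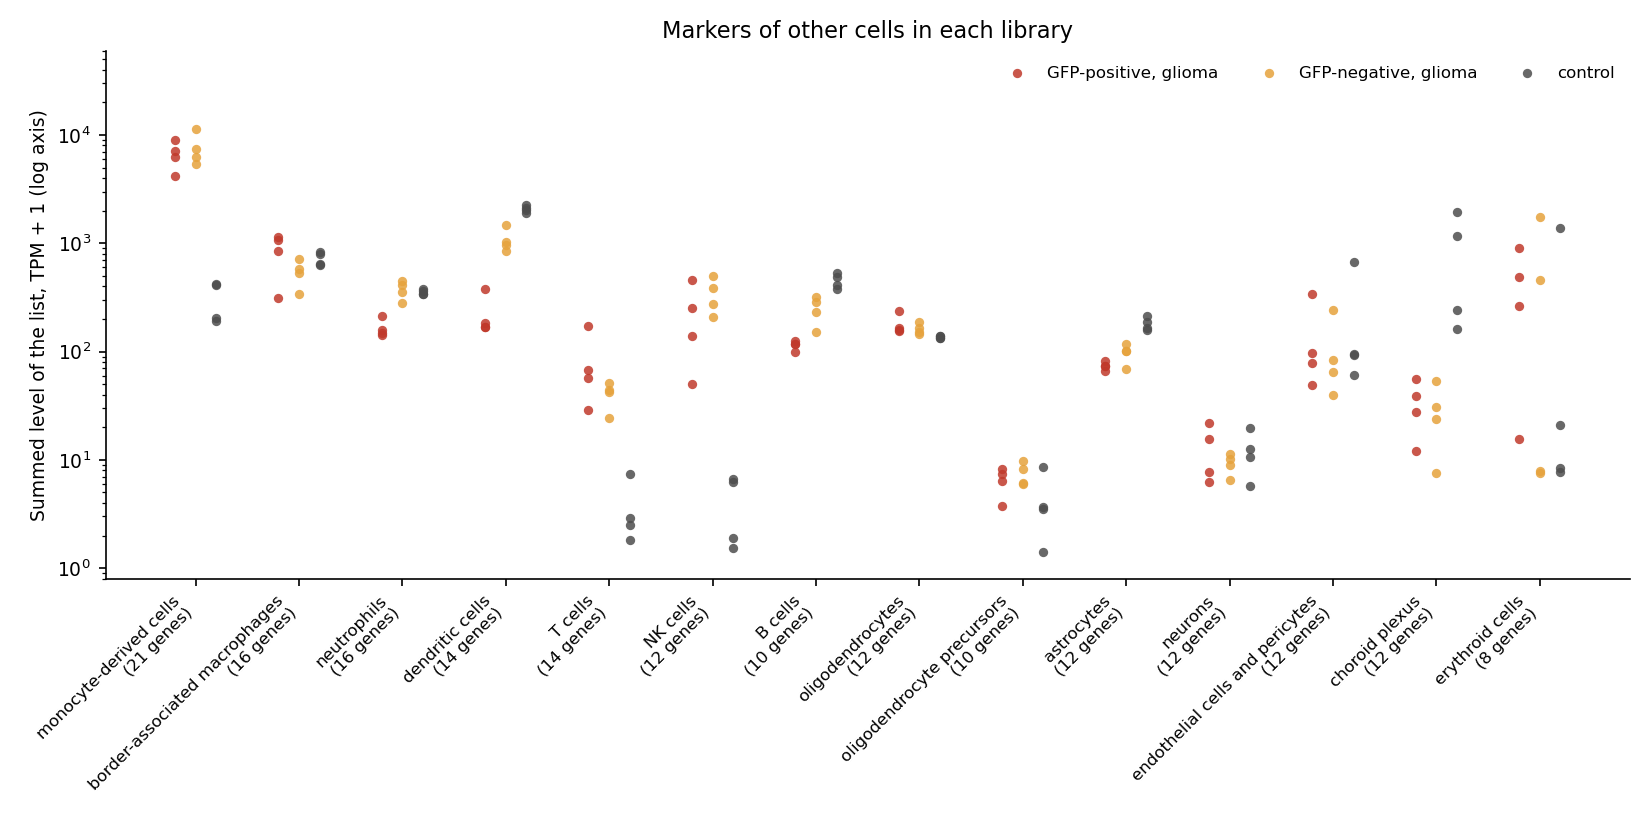
Summed TPM (as TPM + 1, log axis) of 14 lists of cell type markers, 1 point per library, with GFP-positive libraries left of GFP- and control libraries. Monocyte-derived, T cell and NK cell sums are higher in every GFP-positive than in any control library (4159 to 9042 against 191 to 416 TPM for monocyte-derived cells), and choroid plexus sums are lower.

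Beside GFP- cells of the same tumour model, 965 genes were called (6.67%), 134 higher (0.927%) and 831 lower (5.75%) in GFP-positive cells. This contrast shares its GFP-positive libraries with the one above, so the values are given side by side only. Disease-associated genes were higher in 8 of 32 and lower in none, glycolysis genes higher in 8 of 19, and homeostatic genes lower in 14 of 27. Markers of other cells moved in the same contrast. Dendritic cell markers were lower in 8 of 13, with sums of 166 to 380 TPM in GFP-positive and 840 to 1481 TPM in GFP- libraries, Siglech included. Monocyte-derived markers were lower in 6 of 21, with overlapping sums of 4159 to 9042 TPM in GFP-positive and 5372 to 11439 TPM in GFP- libraries. None of either list was higher, and their part in the results was not tested. P2ry12 was lower in GFP-positive than in GFP- cells (log2 fold change -2.35, SE 0.35, adjusted p = 0.0034), and Gpnmb was higher (log2 fold change 1.97, SE 0.21, adjusted p = 8.39e-04). Of the type I interferon list 1 of 34 genes was called, and it was lower. The total of 965 was 420 without GFP- library 2, and 619, 537 and 505 without GFP-positive library 2, 3 or 4.

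The study sorted GFP-positive and control microglia in other disease models too, and the glioma response was set against 3 of them in a joint model of 43 libraries and 11916 genes. These were cuprizone, a copper chelator that strips myelin (3 GFP-positive and 4 control libraries), EAE, an autoimmune inflammation of the central nervous system (3 and 3), and 5xFAD, an amyloid model (4 and 4). By label the cuprizone and EAE groups were 8 to 10 weeks old, as in the glioma experiment, and cuprizone was given for 5 weeks. The 5xFAD experiment, controls included, was at 7 months. Age thus differs together with the model in that comparison, and its part was not tested. The response of each model is its GFP-positive minus its own control libraries, and the difference of responses was tested. The tables were normalized separately. The glioma response differed from that in cuprizone for 2907 genes (24.4%), from EAE for 1893 (15.9%) and from 5xFAD for 2976 (25%). It was higher than all 3 for 525 genes (4.41%) and lower than all 3 for 524 (4.4%). After rescaling of each table these numbers were 667 higher and 482 lower. Fos averaged 633 TPM in glioma GFP-positive libraries and 175 TPM in their controls, and at most 3.47 TPM in any group of the other 3 experiments. The part of this difference between tables in the responses was not tested.

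Tgfbi differed in the same direction from all 3. It averaged 1572 TPM in glioma, 26.8 in cuprizone, 67.5 in EAE and 34.6 in 5xFAD GFP-positive libraries. Controls averaged 71 TPM in glioma, 53.2 in cuprizone, 57.2 in EAE and 77.2 in 5xFAD. Its log2 response in glioma differed by 5.34 (SE 0.34) from cuprizone, 4.13 (SE 0.36) from EAE and 5.52 (SE 0.33) from 5xFAD, the highest adjusted p being 1.46e-10. Clec4n, the fungal pattern receptor Dectin-2, averaged 263 TPM in glioma, 3.68 in cuprizone, 1.71 in EAE and 0.395 in 5xFAD GFP-positive libraries. Controls averaged 1.7 TPM in glioma, 15.4 in cuprizone, 0 in EAE and 1.61 in 5xFAD. The response of Clec4n differed by 8.28 (SE 0.95) from cuprizone, 5.08 (SE 0.98) from EAE and 7.14 (SE 0.91) from 5xFAD, the highest adjusted p being 2.85e-04. Ccr1, a receptor for CCL3 and CCL5, averaged 145 TPM in glioma, 3.81 in cuprizone, 3.85 in EAE and 1.76 in 5xFAD GFP-positive libraries. Controls averaged 11.8 TPM in glioma, 12.3 in cuprizone, 20.2 in EAE and 6.79 in 5xFAD. Its mean was lower in the GFP-positive than in the control group of the other 3 models. In log2 response Ccr1 differed by 4.79 (SE 0.6) from cuprizone, 5.58 (SE 0.62) from EAE and 4.98 (SE 0.57) from 5xFAD, the highest adjusted p being 9.21e-08. Dnase1l3, a secreted DNase that digests chromatin, averaged 121 TPM in glioma, 1.35 in cuprizone, 3.77 in EAE and 1.54 in 5xFAD GFP-positive libraries. Controls averaged 0.537 TPM in glioma, 1.52 in cuprizone, 0.257 in EAE and 3.92 in 5xFAD. Its log2 response differed by 6.38 (SE 0.6) from cuprizone, 4.35 (SE 0.63) from EAE and 7.27 (SE 0.58) from 5xFAD, the highest adjusted p being 3.60e-06.

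The antagonist Il1rn averaged 673 TPM in glioma, 26.6 in cuprizone, 17.2 in EAE and 7.21 in 5xFAD GFP-positive libraries. Controls averaged 3.0 TPM in glioma, 2.28 in cuprizone, 2.91 in EAE and 1.71 in 5xFAD. The response of Il1rn differed by 4.53 (SE 0.91) from cuprizone, 5.47 (SE 0.94) from EAE and 5.73 (SE 0.87) from 5xFAD, the highest adjusted p being 2.38e-04. Rrm2, a subunit of ribonucleotide reductase needed for DNA synthesis, averaged 39.6 TPM in glioma, 2.04 in cuprizone, 5.52 in EAE and 0.75 in 5xFAD GFP-positive libraries. Controls averaged 1.57 TPM in glioma, 2.66 in cuprizone, 5.16 in EAE and 3.53 in 5xFAD. In log2 response Rrm2 differed by 4.48 (SE 0.82) from cuprizone, 4.13 (SE 0.85) from EAE and 5.43 (SE 0.79) from 5xFAD, the highest adjusted p being 6.00e-04. S100a10, the partner of annexin A2, averaged 128 TPM in glioma, 4.74 in cuprizone, 1.52 in EAE and 3.83 in 5xFAD GFP-positive libraries. Controls averaged 19.1 TPM in glioma, 13.3 in cuprizone, 16 in EAE and 18 in 5xFAD. Its log2 response differed by 4.25 (SE 0.65) from cuprizone, 5.4 (SE 0.67) from EAE and 4.73 (SE 0.62) from 5xFAD, the highest adjusted p being 3.91e-06. Sirpb1c, of a family of close copies, averaged 252 TPM in glioma, 1.6 in cuprizone, 0 in EAE and 0 in 5xFAD GFP-positive libraries. Controls averaged 10.1 TPM in glioma, 1.83 in cuprizone, 1.19 in EAE and 4.24 in 5xFAD. The response of Sirpb1c differed by 4.21 (SE 0.91) from cuprizone, 5.31 (SE 0.94) from EAE and 6.35 (SE 0.87) from 5xFAD, the highest adjusted p being 5.55e-04.

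On the lower side, Siglech averaged 74.9 TPM in glioma, 585 in cuprizone, 437 in EAE and 1059.8 in 5xFAD GFP-positive libraries. Controls averaged 1785 TPM in glioma, 1317 in cuprizone, 1593 in EAE and 1575 in 5xFAD. Its mean was lower in the GFP-positive group of all 4 models, and the glioma response differed by -3.54 (SE 0.34) from cuprizone, -2.85 (SE 0.36) from EAE and -4.14 (SE 0.33) from 5xFAD, the highest adjusted p being 3.20e-07. Gpr34, a lysophosphatidylserine receptor of microglia, averaged 98.4 TPM in glioma, 1205 in cuprizone, 535 in EAE and 1213 in 5xFAD GFP-positive libraries. Controls averaged 2164 TPM in glioma, 2616 in cuprizone, 2117 in EAE and 2705 in 5xFAD. In log2 response Gpr34 differed by -3.37 (SE 0.3) from cuprizone, -2.51 (SE 0.31) from EAE and -3.34 (SE 0.29) from 5xFAD, the highest adjusted p being 2.83e-07. Plpp1, a lipid phosphatase, averaged 12.2 TPM in glioma, 178 in cuprizone, 63.7 in EAE and 260.1 in 5xFAD GFP-positive libraries. Controls averaged 119 TPM in glioma, 195 in cuprizone, 104 in EAE and 168 in 5xFAD. Its log2 response differed by -3.15 (SE 0.34) from cuprizone, -2.59 (SE 0.35) from EAE and -3.94 (SE 0.33) from 5xFAD, the highest adjusted p being 1.45e-06. Thrsp averaged 1.37 TPM in glioma, 51.4 in cuprizone, 16.5 in EAE and 92.7 in 5xFAD GFP-positive libraries. Controls averaged 86.7 TPM in glioma, 197 in cuprizone, 77.2 in EAE and 229 in 5xFAD. The response of Thrsp differed by -3.33 (SE 0.34) from cuprizone, -3.09 (SE 0.36) from EAE and -3.96 (SE 0.33) from 5xFAD, the highest adjusted p being 7.42e-08.

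Mgll averaged 1.91 TPM in glioma, 20.1 in cuprizone, 18.6 in EAE and 47.2 in 5xFAD GFP-positive libraries. Controls averaged 75.1 TPM in glioma, 63.9 in cuprizone, 57.9 in EAE and 101 in 5xFAD. In log2 response Mgll differed by -3.17 (SE 0.51) from cuprizone, -3.16 (SE 0.52) from EAE and -3.63 (SE 0.49) from 5xFAD, the highest adjusted p being 3.53e-05. The fibrillar collagen gene Col27a1 averaged 3.79 TPM in glioma, 51.7 in cuprizone, 39.8 in EAE and 25.6 in 5xFAD GFP-positive libraries. Controls averaged 110.4 TPM in glioma, 120.4 in cuprizone, 153 in EAE and 107 in 5xFAD. Its log2 response differed by -3.45 (SE 0.4) from cuprizone, -2.73 (SE 0.41) from EAE and -2.65 (SE 0.38) from 5xFAD, the highest adjusted p being 8.78e-06. The membrane protein Tmem100 averaged 2.81 TPM in glioma, 32.1 in cuprizone, 17.1 in EAE and 32.5 in 5xFAD GFP-positive libraries. Controls averaged 56.6 TPM in glioma, 76.6 in cuprizone, 44.2 in EAE and 79.2 in 5xFAD. The response of Tmem100 differed by -2.8 (SE 0.38) from cuprizone, -2.66 (SE 0.4) from EAE and -2.73 (SE 0.37) from 5xFAD, the highest adjusted p being 6.56e-06. Whrn, a scaffold protein of hair cells and photoreceptors, averaged 2.77 TPM in glioma, 9.79 in cuprizone, 15.2 in EAE and 13.3 in 5xFAD GFP-positive libraries. Controls averaged 60.6 TPM in glioma, 29.8 in cuprizone, 38.3 in EAE and 29.4 in 5xFAD. In log2 response Whrn differed by -2.68 (SE 0.52) from cuprizone, -2.86 (SE 0.54) from EAE and -3.05 (SE 0.5) from 5xFAD, the highest adjusted p being 1.95e-04. These 8 genes were lower in glioma GFP-positive than in control microglia by more than in any of the other 3 models.

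Among the lists, 16 of 33 type I interferon genes and 16 of 24 cell cycle genes in the joint model were higher than in all 3 other models, beside 4.41% of all genes. The same held for 8 of 19 glycolysis and 9 of 28 oxidative phosphorylation genes. Markers of monocyte-derived cells were also higher than in all 3 for 4 of 12 in the joint model, Tgfbi among them, and none was lower. The part of monocyte-derived cells in the differences between models was not tested. Of the homeostatic list 18 of 27 were lower than in all 3, beside 4.4% of all genes, as were 12 of 32 lysosomal genes, while 1 lysosomal gene was higher. Of the 32 disease-associated genes none was higher than in all 3 and 7 were lower. These list counts are on the deposited scale and are not given after rescaling. The lysosomal split against control moved with the scale, as described above, and the part of the scale in these counts was not tested. Spp1 averaged 539 TPM in glioma, 698 in cuprizone, 969 in EAE and 766 in 5xFAD GFP-positive libraries. Controls averaged 7.06 TPM in glioma, 4.74 in cuprizone, 36.4 in EAE and 10.0 in 5xFAD.

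**Figure D5:**
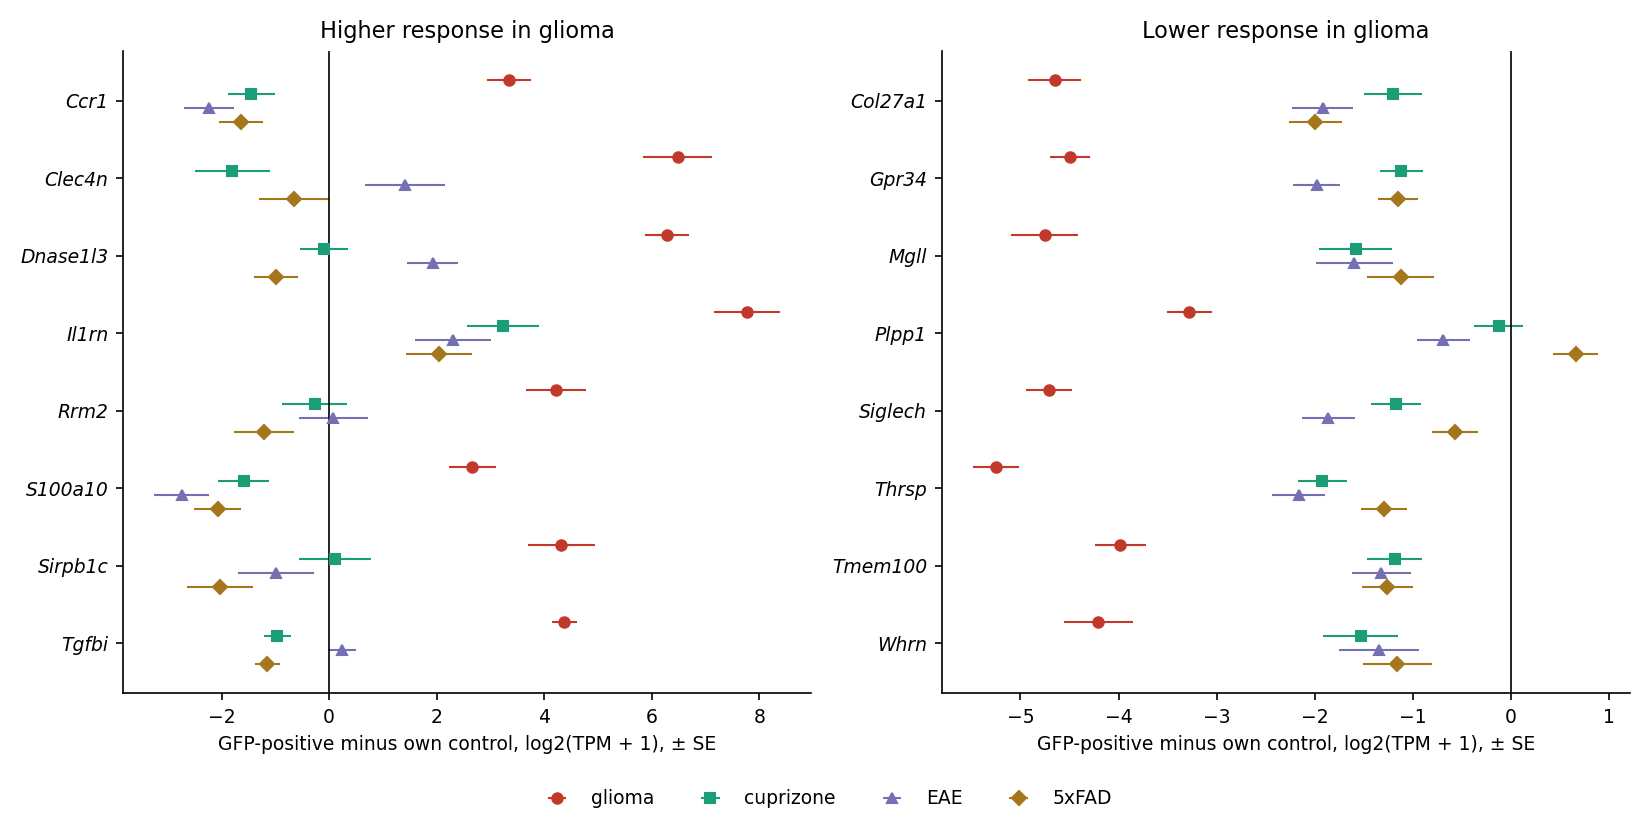
Log2 response, GFP-positive minus control on the log2(TPM + 1) scale with its SE, of 16 genes whose glioma response differed from that of the 3 other models in the same direction, in glioma, cuprizone, EAE and 5xFAD. The glioma response lies apart from the other 3 for each of the 16 genes, as for Ccr1 at 3.34 in glioma and below 0 elsewhere.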

How the data were processed

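The values are TPM per gene symbol that the authors deposited, 1 table per disease model, built per the submitters' processing notes with cutadapt 2.10, STAR 2.7.5c and RSEM 1.3.3 on GRCm38 (mm10), from a modified SMART-Seq2 protocol on 2000 sorted cells per library, per the labels. RSEM shares ambiguous reads between similar genes, and TPM keeps no read depth, so no counting error can be given.

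TPM was taken as log2(TPM + 1), genes with at least 1 TPM in 4 or more of 12 libraries were kept, and group means of the GFP-positive, GFP- and control libraries were fitted with limma 3.58.1 in R 4.3.3 (trend, Benjamini-Hochberg adjustment over all genes, threshold 0.05). The script was tested on simulated data. A joint limma model of 43 libraries tested differences between models on genes that passed in each table. Rescaling divided each library by its median-of-ratios factor over 11768 genes: 0.83 to 0.87 for GFP-positive, 0.94 to 1.04 for GFP- and 1.25 to 1.34 for control libraries.

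Named genes were Spp1, the 12 largest rises and falls among called genes without overlap whose higher group averaged 10 TPM or more, 8 genes in each direction that differed from all 3 other models, and for each list up to 5 called members by smallest adjusted p, up to 2 called the other way and up to 2 not called. Some genes that this rule selects are not reported here. Fos, Csf1r, Cx3cr1, Tmem119, Sall1, Aif1 and Ptprc were named beside this rule. Members, lists and tests were chosen with earlier results of these data known. Gene models without a given name were not named. Alternatives were a pseudocount of 0.1, no filter, a filter of 5 TPM, rescaling, the 8 libraries alone, a replicate block, no trend with robust fitting, and leaving out each library. Promoters came from a RefSeq table and figures from matplotlib 3.10.9. Stroke samples and pooled samples of the series were not analysed here.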

Additional observations from a re-analysis of the deposited data

Results flagged for a closer look

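A library far from the other 3 of its group was found in 22 of 352 groups of 4 over the 176 named genes (6.25%), by Dixon's criterion on the gap to the nearest library as a share of the group's range. At its nominal level chance gives about 1 in 20, a rate not measured on these genes, many of which were chosen for groups without overlap. Where 3 libraries were listed at 0, any other value meets the criterion, as in the controls for Acod1, Cxcl11, Gpnmb, Lck and Nkg7. Groups listed at 0 in all 4 libraries cannot meet it, yet are counted among the 352. The 6.25% can therefore not be read against 1 in 20. In the GFP-positive group, library 1 stood apart for Cd44 (50.9 TPM, low), Anxa5 (387 TPM, low), Ms4a7 (118 TPM, low) and Fcgr4 (998 TPM, high). Library 2 stood apart for Gbp3 (128 TPM, low), Junb (1516 TPM, high) and Lck (21.9 TPM, high), and library 3 for Cfb (1129.8 TPM, high) and Xbp1 (209 TPM, high).

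Among controls, library 1 stood apart for Cd44 (11.4 TPM, high), Cxcl11 (0.68 TPM, high), Lck (0.77 TPM, high) and Ccl5 (1.43 TPM, low). Library 2 was low for Ccl2 (42.9 TPM), Entpd1 (602 TPM) and Csf1r (5569.8 TPM). Library 3 was low for H2-K1 (855 TPM) and high for Gpnmb (0.24 TPM). Library 4 was high for Acod1 (0.62 TPM), Nkg7 (1.18 TPM) and Ly6a (157.5 TPM) and low for Atf3 (42.7 TPM). For every gene of both paragraphs the GFP-positive and control libraries did not overlap.

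The glioma response (GFP-positive minus control, log2) differed from that of all 3 other models for 16 named genes. The smallest of the 3 differences was 4.79 for Ccr1, 5.08 for Clec4n, 4.35 for Dnase1l3, 4.53 for Il1rn, 4.13 for Rrm2, 4.25 for S100a10, 4.21 for Sirpb1c and 4.13 for Tgfbi. On the lower side it was -2.65 for Col27a1, -2.51 for Gpr34, -3.16 for Mgll, -2.59 for Plpp1, -2.85 for Siglech, -3.09 for Thrsp, -2.66 for Tmem100 and -2.68 for Whrn. Each rests on 4 GFP-positive and 4 control glioma libraries, and these 16 were chosen for the size of the difference.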

How the results depend on the processing

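Depth is unknown, and RSEM can move reads between near-identical genes, which limits single members of the Ly6, Gbp, Ifi and H2 families. The labels do not tie libraries to mice, and all 12 libraries came out male, so no sex term could be fitted. Same-numbered GFP-positive and control libraries did not deviate together (correlations of -0.07, 0.04, -0.02 and 0.08 over genes). Same-numbered GFP-positive and GFP- libraries correlated at 0.145, 0.085, 0.203 and 0.007, all positive and 2 of 4 above 0.1, and 3 of 4 GFP-positive libraries correlated best with their own number. As not every pair was above 0.1, the numbers were not read as pairs in the main fit. These 4 correlations cannot exclude that the gates were paired by number. With a replicate block 9142 genes were called against control, among them 8925 of the 9205, and 825 against GFP- cells. That block also joined the controls by number, so no fit paired only the GFP-positive and GFP- libraries.

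Rescaling moved the split against control from 2561 higher and 6644 lower to 4081 higher and 3408 lower, because the factors shift the median of all genes by their construction. Against GFP- cells, no filter on low values gave 550 called genes (78 higher, 472 lower) and rescaling gave 332 higher and 422 lower, and the cause was not tested. Leaving out each library in turn gave 8488 to 8925 called genes against control (2331 to 2530 higher, 6157 to 6470 lower) and 420 to 1025 against GFP- cells (56 to 156 higher, 364 to 869 lower). For the differences between models it gave 2482 to 2942 for cuprizone, 1533 to 2061 for EAE, 2558 to 2975 for 5xFAD, 416 to 569 higher than all 3 and 404 to 598 lower.

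Of 2639 alternatives over 176 named genes, 2628 kept the direction and the side of the threshold, 6 lost a call and 5 gained one. Rescaling ended the calls of H2-Ob, Itgav, Hk2 and Xbp1 and made calls of Irf9, Ctss and Mcm7. With a pseudocount of 0.1, 3 of 48 differences between models lost their call (Clec4n against EAE, Il1rn and Sirpb1c against cuprizone). Of 1260 list counts under alternatives, 58 moved by over 1.5 times.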
